A study of Saccharomyces cerevisiae with 18 samples.

Results

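The genes that carry hexose to ethanol in Saccharomyces cerevisiae were followed in wild type cells and in cells that overexpress the Ppz1 phosphatase. The set holds 33 genes, from the hexose kinases to the alcohol dehydrogenases, with the isozymes of each step, the enzymes that make and remove fructose 2,6-bisphosphate and a pair of transcriptional activators of the pathway. They were chosen by name in the 6692 gene rows of the count tables, by a rule that uses names alone. The names were listed with earlier results of these data known. The 33 were found in every table and passed the filter on low counts, which left 5658 genes for testing. PDC6 passed it through its ZCZ01 libraries at 2 and 4 h. Its difference between the strains and its rise with time in ZCZ01 are thus partly set by the filter, and PDC6 is counted among the 33 below with that reservation. PFK27 reached the level of the filter in 2 wild type and 3 ZCZ01 libraries, where 3 were needed. The ZCZ01 libraries were those of 2 h, and the wild type libraries were of 4 h. Wild type alone would not have passed the filter, so the difference of PFK27 at 2 h and its changes with time carry a like reservation.

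The control was BY4741, a laboratory strain that lacks HIS3, LEU2, MET17 and URA3, and it was compared with ZCZ01, a single derived strain in which the GAL1-10 promoter drives PPZ1. Both strains were moved from glucose medium to raffinose, and 2% galactose was given at a culture density near 0.6. RNA was taken 0.5, 2 and 4 h later in 3 experiments, which makes 3 libraries for each strain and time and 18 in all. By the methods, each culture was sampled at the 3 times, so the libraries of a time course are not from separate cultures. Galactose thus reached the controls as well, so the strains were compared under the same sugar at each time. A library stands for all cells of a sample, in which fewer expressing cells and less mRNA per cell cannot be told apart.

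The libraries held 955972 to 1920193 counts. QuantSeq 3′ libraries yield about 1 read per transcript, so levels are given as CPM, counts scaled to a common library size after TMM normalization, and were not divided by length. The 3 values in a row always stand for experiments 1, 2 and 3. Libraries of experiments 2 and 3 differed from each other by a chi-square per degree of freedom of 1.12 to 2.59, against 21.7 to 46.2 for experiment 1 with another, and experiment 3 held 1.32 to 1.34 times the counts of experiment 2 in each group. The sources used here do not say whether these are separate cultures. If they are repeat libraries of the same culture, then n is 2 where 3 is printed, and the SDs, the adjusted p values and the permutation p values below do not hold as given. When experiments 2 and 3 were summed as 1 replicate, 15 of the 20 members called at 2 h and 15 of the 20 at 4 h still passed. For 12 of the 18 libraries the title and the library name disagree on the time, and the time in the library name was taken. The column headers of the count tables carry the time of the library name as well. Under the times of the titles, 1 of the 20 calls at 2 h and 0 of the 20 at 4 h were kept. PPZ1 stood at 8.76, 7.03 and 4.59 CPM in wild type and 508, 131 and 131 CPM in ZCZ01 at 0.5 h. At 2 h it stood at 89.5, 394 and 458 CPM in ZCZ01 and at 4 h at 21.0, 96.5 and 89.1 CPM, and no wild type library exceeded 10.7 CPM, so the strain labels hold in every library, while experiment 1 reached its highest PPZ1 level earlier than the others. LEU2 and MET17 were at 0 to 0.878 CPM in the 18 libraries. URA3, also lacking in BY4741, was detected in both strains. Its mean was 12.6 CPM in wild type and 7.55 CPM in ZCZ01 at 0.5 h. At 4 h the means were 4.12 and 4.53 CPM, and no difference was called at either time. At 2 h URA3 was at 15.7 to 15.9 CPM in wild type and at 0 to 2.23 CPM in ZCZ01. The source of these counts and of the difference at 2 h was not tested. Scaling by total counts instead of TMM moved the median of all genes by 0.14 at 2 h and by 0.05 at 4 h on the log2 scale.

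Glycolysis turns glucose, fructose and, after its entry as glucose phosphate, galactose into pyruvate, and pyruvate decarboxylase and alcohol dehydrogenase then make ethanol and restore NAD. In yeast most steps have several isozymes, of which a single one is usually abundant on glucose and others are used on poorer carbon sources or under stress. Hexokinase 2 is also linked to glucose repression, the programme in which the Mig1 repressor silences genes for other carbon sources, and Gcr1 with its partners drives the abundant glycolytic genes.

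Promoter sequence was examined first, as a description of what the genes share. The 600 bases before each start codon were searched on both strands, in 5999 promoters of the R64 genome, for the letters that core sites of 4 regulators are known by. The Mig1 letters (GCGGGG or GTGGGG or CCGGGG or CTGGGG) occurred in 13 of the 33 promoters, and in 27.8% of all promoters. Each of the 4 hexose kinase genes held them. The Gcr1 letters (CTTCC) occurred in 26 of the 33 and in 72.9% of all promoters. The stress response element bound by Msn2 and Msn4 (AGGGG) occurred in 19 of the 33 and in 39.7% of all promoters, and the Adr1 letters (TTGGAG or TTGGGG) in 6 of the 33 and in 32.1% of all. The stress and Mig1 letters and the TTGGGG form of Adr1 end in a like run of G. The letters before the run differ, so a run is not counted under more than 1 of them. Matches of different regulators can still share bases at their ends. HXK1 held 5 stress elements and 2 Mig1 matches, whereas HXK2 held 1 Mig1 match and no stress element in this window.

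The windows shown hold matches of genes whose levels are followed most closely in what follows: a Mig1 match of each hexose kinase gene, the Gcr1 matches of CDC19 and the Adr1 matches of ADH2. Each is 100 bases of the R64 genome from RefSeq, read 5′ to 3′ on the strand of the gene, and capitals mark the letters matched on either strand.
HXK1, chrVI:255300-255399, strand -: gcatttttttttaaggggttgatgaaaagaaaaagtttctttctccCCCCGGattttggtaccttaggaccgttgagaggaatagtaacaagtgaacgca
HXK2, chrVII:23335-23434, strand +: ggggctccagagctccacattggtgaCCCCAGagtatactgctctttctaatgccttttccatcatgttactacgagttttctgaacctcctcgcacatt
GLK1, chrIII:50578-50677, strand +: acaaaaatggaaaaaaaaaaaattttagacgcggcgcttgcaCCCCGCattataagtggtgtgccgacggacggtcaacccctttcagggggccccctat
EMI2, chrIV:1476727-1476826, strand -: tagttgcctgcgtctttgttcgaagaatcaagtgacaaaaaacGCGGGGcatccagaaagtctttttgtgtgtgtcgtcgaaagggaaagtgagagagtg
CDC19, chrI:71446-71545, strand +: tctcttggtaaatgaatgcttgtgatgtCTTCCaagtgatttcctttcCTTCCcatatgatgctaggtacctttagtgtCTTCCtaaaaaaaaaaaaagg
ADH2, chrXIII:874568-874667, strand -: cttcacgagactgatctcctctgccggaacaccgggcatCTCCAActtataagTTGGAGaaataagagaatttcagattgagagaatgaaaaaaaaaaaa
In HXK1, HXK2 and GLK1 the Mig1 letters read on the strand opposite to the gene, and in EMI2 on the strand of the gene. The other Mig1 match of HXK1 lies outside the window shown. CDC19 held 3 Gcr1 matches within its window, and ADH2 held 2 Adr1 matches in opposite orientation with 8 bases between them. A match is a stretch of letters and was not tested for binding.

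Between the strains, the members were little changed at 0.5 h, more often higher than lower in ZCZ01 at 2 h and split at 4 h. At 0.5 h no member was higher and 2 were lower in ZCZ01 by the quasi-likelihood test of edgeR, with p adjusted by the Benjamini-Hochberg method over all genes, against 4.56% and 2.30% of all genes tested. At an unadjusted p under 0.05 there were 2 higher and 7 lower, against 11.6% and 8.55% of all genes. At 2 h, 16 members (48.5%) were higher and 4 (12.1%) lower, against 19.1% and 23.2% of all genes. At 4 h, 8 members (24.2%) were higher and 12 (36.4%) lower, against 19.9% and 21.4% of all genes. By at least 2-fold, 10 members were higher and 3 lower at 2 h (10.7% and 9.70% of all genes), and 5 were higher and 6 lower at 4 h (10.2% and 10.4%). The median log2 fold change of the 33 was -0.01, 0.69 and -0.04 at 0.5, 2 and 4 h, and that of all genes was 0.01, -0.05 and 0.00. Libraries of the strains did not overlap in 8, 22 and 17 of the 33 members, against 21.5%, 44.1% and 39.3% of all genes. The 20 calls at 2 h and the 20 at 4 h were not equally firm: 13 and 14 of them passed in every other fit that kept the times of the library names. With no replicate block, both calls at 0.5 h were lost, as were those of EMI2, PGI1, PFK26, PGK1 and ADH3 at 2 h and of PFK1, TPI1 and ADH1 at 4 h. With experiments 2 and 3 summed, both calls at 0.5 h, those of PGI1, PFK26, PFK27, PGK1 and ADH3 at 2 h and those of PFK1, FBA1, PDC1, ADH1 and ADH4 at 4 h were lost. Without experiment 1, 8 members were higher and 10 lower at 0.5 h, a fit that rests on the closely alike experiments 2 and 3. The share of all genes called in that fit was not counted, so these numbers are not read as a result about the members.

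**Figure D1:**
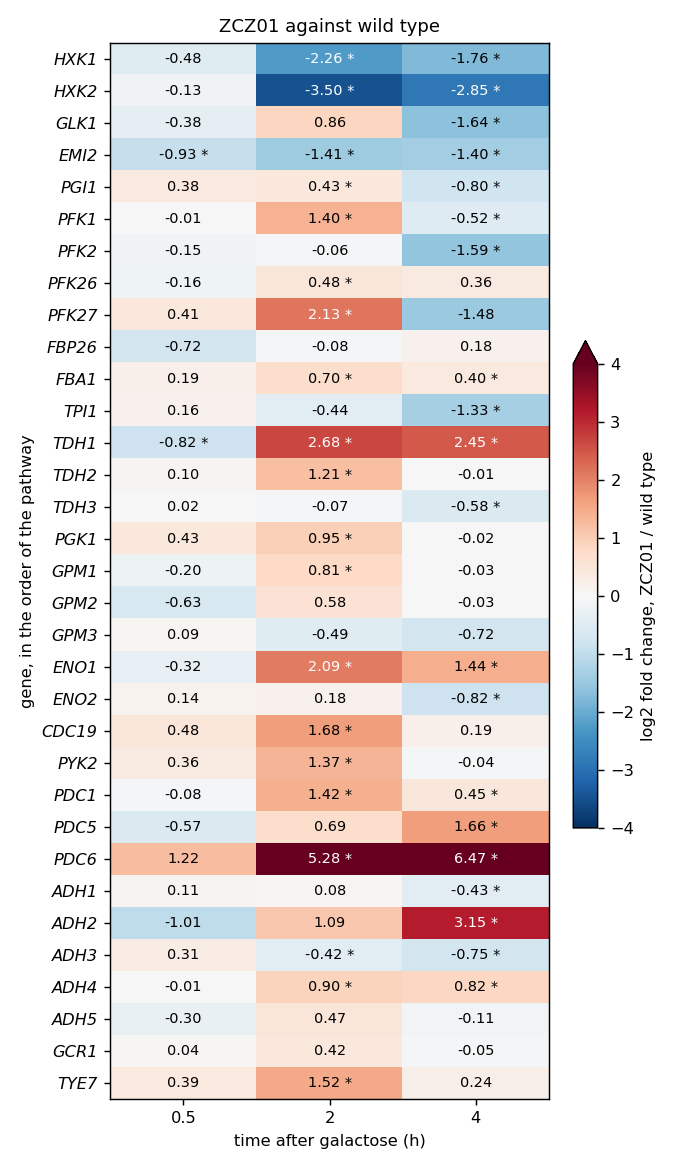
Log2 fold change of each of the 33 genes in ZCZ01 against wild type (colour and number) at 0.5, 2 and 4 h after galactose, in the order of the pathway from hexose kinases to regulators. An asterisk marks an adjusted p under 0.05 (edgeR, 3 experiments). PDC6 at 5.28 and 6.47 lies beyond the colour scale, and the hexose kinases are the low values at the top, apart from GLK1 at 2 h (0.86).

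The mRNAs of the first step, phosphorylation of hexose, were lower in ZCZ01 by 4 h. HXK1 and EMI2 were lower at both 2 and 4 h, as was HXK2, and GLK1 was lower at 4 h. HXK2 (YGL253W, chrVII:23935-25395 of R64) encodes hexokinase 2, the main hexokinase on glucose. It stood at 2677, 2184 and 1925 CPM in wild type and 2950, 1783 and 1634 CPM in ZCZ01 at 0.5 h, where the strains overlapped. At 2 h the values were 2455, 1269 and 1108 CPM in wild type and 276, 78.9 and 105 CPM in ZCZ01, and the highest ZCZ01 library was below the lowest of wild type (log2 fold change -3.50, SE 0.17, adjusted p = 5.8e-09). At 4 h they were 1829, 619 and 609 CPM and 273, 71.6 and 92.7 CPM (log2 fold change -2.85, SE 0.17, adjusted p = 2.5e-08). In both strains experiment 1 held the most HXK2 mRNA at these times, and the ratio within each experiment stayed on the same side.

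HXK1 (YFR053C, chrVI:253592-255049 of R64) encodes hexokinase 1, which is used on sugars other than glucose. Its levels were 5889, 6769 and 6678 CPM in wild type and 5004, 4489 and 4405 CPM in ZCZ01 at 0.5 h, a difference in the same direction in each experiment, but without a call (-0.48, SE 0.14, adjusted p = 0.0511). At 2 h HXK1 stood at 1631, 1026 and 1000 CPM in wild type and at 258, 244 and 241 CPM in ZCZ01 (log2 fold change -2.26, SE 0.14, adjusted p = 6.1e-08). At 4 h it stood at 1912, 1743 and 1512 CPM and 650.4, 451 and 439.6 CPM (log2 fold change -1.76, SE 0.14, adjusted p = 4.5e-07). The strains were apart in each library at the 3 times. HXK1 also fell in wild type itself between 0.5 and 2 h (-2.44, SE 0.16, adjusted p = 4.0e-08) and fell further in ZCZ01 (-4.22, SE 0.18, adjusted p = 2.5e-11), and the difference between these was called (-1.79, SE 0.20, adjusted p = 2.0e-05).

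EMI2 (YDR516C, chrIV:1474974-1476476 of R64), a relative of glucokinase, was the hexose kinase gene that was lower at all 3 times. It stood at 1007, 1205 and 1171 CPM in wild type and 725, 536 and 523 CPM in ZCZ01 at 0.5 h (log2 fold change -0.93, SE 0.15, adjusted p = 0.00238). At 2 h the values were 438, 239 and 229 CPM and 189, 82.6 and 80.9 CPM (log2 fold change -1.41, SE 0.16, adjusted p = 1.5e-05), and at 4 h 766, 288 and 266 CPM and 307, 101 and 102 CPM (log2 fold change -1.40, SE 0.16, adjusted p = 1.2e-05). Experiment 1 was higher than the others in both strains at 2 and 4 h, so the groups overlap at 4 h while each experiment gives a lower value in ZCZ01. The call at 0.5 h was lost without experiment 2 (-0.84) and without experiment 3 (-0.84).

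GLK1 (YCL040W, chrIII:50838-52340 of R64), encoding glucokinase, took another course. At 0.5 h it stood at 1312, 671 and 733 CPM in wild type and 719, 649 and 624 CPM in ZCZ01 (-0.38, SE 0.34, adjusted p = 0.6). It fell in wild type to 463, 135 and 136 CPM at 2 h and stood at 437, 344 and 352 CPM in ZCZ01, with overlapping libraries and no call (0.86, SE 0.35, adjusted p = 0.0649). At 4 h wild type was at 1159, 362 and 399.9 CPM and ZCZ01 at 152, 203 and 177 CPM (log2 fold change -1.64, SE 0.36, adjusted p = 0.00262), and without experiment 1, whose wild type library was the highest, the log2 fold change was -1.00. The strain effect differed between 2 and 4 h (-2.50, SE 0.50, adjusted p = 0.00623). HXK1 and GLK1 overlap other annotated reading frames on the same strand, YFR052C-A and YCL042W, and reads of these cannot be told apart from theirs.

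**Figure D2:**
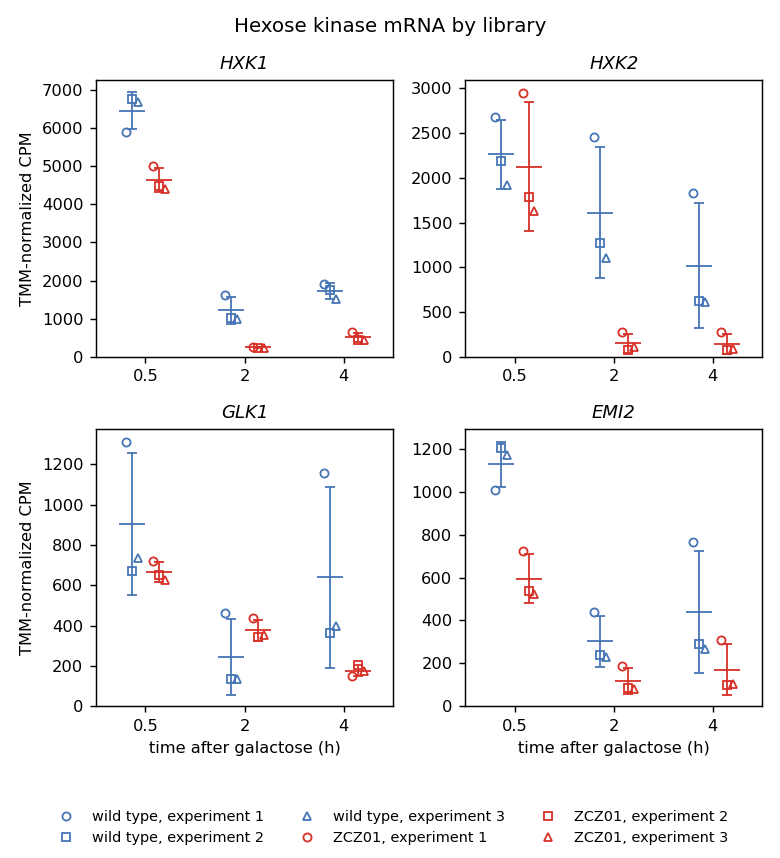
TMM-normalized CPM (y axis, from 0) of the 4 hexose kinase genes at 0.5, 2 and 4 h after galactose (x axis), with 1 point per library, the bar at the mean and whiskers of 1 SD (n = 3). Wild type is blue and ZCZ01 red. HXK2 in ZCZ01 lay between 71.6 and 276 CPM at 2 and 4 h, and in wild type between 609 and 2455 CPM.

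As shares of the counts of the 4 kinase genes, HXK2 made up 47.2% ± 2.22 (SD, n = 3) in wild type and 15.9% ± 6.99 (SD, n = 3) in ZCZ01 at 2 h, and GLK1 6.61% ± 2.32 and 42.9% ± 4.56. The libraries did not overlap in either share, and the exact two-sided permutation test over samples gave p = 0.1, the smallest value that 3 against 3 allow. At 4 h GLK1 was at 15.6% ± 4.35 in wild type and 19.1% ± 7.14 in ZCZ01, so the larger share at 2 h was not seen at that time. A share also depends on the other genes of the family. At 2 h GLK1 itself was not called (0.86), whereas HXK1, HXK2 and EMI2 were called lower in ZCZ01 (-2.26, -3.50 and -1.41).

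In the upper part of the pathway PGI1 and PFK1 were called higher in ZCZ01 at 2 h and lower at 4 h, and for each of them 1 of the calls was lost without experiment 2 or 3. PGI1, phosphoglucose isomerase, was higher in ZCZ01 at 2 h (log2 fold change 0.43, SE 0.14, adjusted p = 0.0287) and lower at 4 h (log2 fold change -0.80, SE 0.14, adjusted p = 6.1e-04). Its call at 2 h was lost without experiment 2 (0.38) or 3 (0.36), and also with 1 replicate block per experiment (0.42). PFK1 and PFK2 encode the alpha and beta subunits of phosphofructokinase, which work in 1 complex. PFK1 stood at 221, 153 and 122 CPM in wild type and 446, 425 and 398 CPM in ZCZ01 at 2 h (log2 fold change 1.40, SE 0.17, adjusted p = 2.2e-05). By 4 h PFK1 was at 386, 269 and 258 CPM and 253, 199.8 and 182 CPM (log2 fold change -0.52, SE 0.16, adjusted p = 0.0224), and that call was lost without experiment 2 (-0.55) or 3 (-0.50). The level at 0.5 h, 396, 221 and 207 CPM in wild type and 299, 245 and 244 CPM in ZCZ01, did not differ by a call. The strain effect on PFK1 fell between 2 and 4 h (-1.91, SE 0.23, adjusted p = 4.7e-04), and this call alone, among the 14 members called in that contrast, passed in each of the 6 other fits run for it, which were no replicate block, total counts, each experiment left out and experiments 2 and 3 summed.

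PFK2 was lower in ZCZ01 at 4 h and was not called at 2 h. It stood at 295, 288 and 313 CPM in wild type and 277, 264 and 265 CPM in ZCZ01 at 0.5 h, and at 191, 106 and 126 CPM and 136, 132 and 128 CPM at 2 h (-0.06, SE 0.16, adjusted p = 0.79). At 4 h the values were 329.8, 134 and 116 CPM and 106, 45.2 and 39.4 CPM (log2 fold change -1.59, SE 0.17, adjusted p = 6.2e-06), lower in ZCZ01 in each experiment. PFK2 fell in both strains between 0.5 and 2 h (-1.15 in wild type and -1.03 in ZCZ01), and in ZCZ01 it fell again to 4 h (-1.15, SE 0.28, adjusted p = 0.023). PFK2 was not called at 2 h and PFK1 was, and the difference between these genes was not tested.

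The genes for the enzymes of fructose 2,6-bisphosphate, an activator of phosphofructokinase, differed in level. Group means ran from 64.8 to 141 CPM for PFK26, 24.2 to 47.5 CPM for FBP26 and 1.57 to 10.0 CPM for PFK27. The enzyme of PFK27 makes the activator. PFK27 stood at 3.14, 3.13 and 0.588 CPM in wild type and 7.10, 13.4 and 9.62 CPM in ZCZ01 at 2 h (log2 fold change 2.13, SE 0.71, adjusted p = 0.0267). These levels of PFK27 rest on a few counts per library. At 4 h PFK27 stood at 10.0, 4.71 and 10.5 CPM and 2.21, 2.70 and 4.10 CPM, without a call (-1.48, SE 0.68, adjusted p = 0.0973), and at 0.5 h at 3.83, 0.878 and 0 CPM and 1.83, 0.776 and 3.47 CPM. The call at 2 h was lost without experiment 2 (2.21) or 3 (1.65), and without experiment 1 the value was 2.74. PFK26, the other synthase, was higher at 2 h (log2 fold change 0.48, SE 0.18, adjusted p = 0.046), a call lost in each other fit except total counts and the one without experiment 1, with values from 0.24 to 0.58. FBP26, which breaks the activator down, was not called at any time (-0.72, -0.08 and 0.18).

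FBA1, the single aldolase, was higher in ZCZ01 at 2 h, with 4668, 4837 and 4936 CPM in wild type and 7120, 8194 and 8246 CPM in ZCZ01 (log2 fold change 0.70, SE 0.10, adjusted p = 8.8e-05). It was higher at 4 h too (log2 fold change 0.40, SE 0.10, adjusted p = 0.00535), a call lost without experiment 2 (0.36) or 3 (0.35). TPI1, triose phosphate isomerase, showed experiment 1 far above the others in wild type. At 4 h it stood at 15813, 2002 and 2062 CPM in wild type and 2746, 1177 and 1241 CPM in ZCZ01 (log2 fold change -1.33, SE 0.26, adjusted p = 0.00108), and without experiment 1 the log2 fold change was -0.73. With no replicate block it was -1.94, and the call was lost. At 2 h TPI1 stood at 8618, 2877 and 2814 CPM and 7141, 1894 and 2054 CPM, and at 0.5 h at 10878, 5296 and 5473 CPM and 13451, 5785 and 5701 CPM, without a call at either time.

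At the glyceraldehyde 3-phosphate dehydrogenase step, TDH1 had the largest fold changes of the isozymes. TDH3 encodes the main isozyme, and TDH1 (YJL052W, chrX:338271-339269 of R64) is known from stationary phase and stress. TDH1 stood at 550.4, 1502 and 1472 CPM in wild type and 378, 724 and 804 CPM in ZCZ01 at 0.5 h (log2 fold change -0.82, SE 0.14, adjusted p = 0.0027), a call lost without experiment 2 (-0.73) or 3 (-0.82). At 2 h the values were 536, 863 and 759.6 CPM in wild type and 4296, 4522 and 4770 CPM in ZCZ01 (log2 fold change 2.68, SE 0.14, adjusted p = 1.4e-08). At 4 h they were 777, 904 and 946 CPM and 4937, 4641 and 4761 CPM (log2 fold change 2.45, SE 0.14, adjusted p = 2.2e-08). The lowest ZCZ01 library was above the highest of wild type at 2 and 4 h, and the experiments gave close values. Within ZCZ01, TDH1 rose between 0.5 and 2 h (2.90, SE 0.25, adjusted p = 1.1e-07), and no change was called between 2 and 4 h (0.09, SE 0.23, adjusted p = 0.852).

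TDH2 was higher in ZCZ01 at 2 h and not at 4 h. It stood at 1254, 1567 and 1468 CPM in wild type and 3668, 3194 and 3077 CPM in ZCZ01 at 2 h (log2 fold change 1.21, SE 0.12, adjusted p = 4.6e-06), and at 1311, 1411 and 1337 CPM and 1232, 1411 and 1393 CPM at 4 h, where the libraries overlapped (-0.01, SE 0.12, adjusted p = 0.953). At 0.5 h the values were 2523, 2622 and 2369 CPM and 2446, 2906 and 2707 CPM. The strain effect on TDH2 fell between 2 and 4 h (-1.22, SE 0.17, adjusted p = 8.4e-04). TDH3 stood at 17516, 15360 and 14622 CPM in wild type and 17142, 14488 and 13587 CPM in ZCZ01 at 2 h (-0.07, SE 0.07, adjusted p = 0.442). At 4 h it was lower in ZCZ01, with 17449, 15578 and 14500 CPM against 11646, 10151 and 10060 CPM (log2 fold change -0.58, SE 0.07, adjusted p = 3.6e-05). At 0.5 h TDH3 was at 17910, 22353 and 21606 CPM and 18332, 22359 and 21803 CPM, and it was the most abundant of the 33 in every group by mean CPM.

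TDH1 made up 4.05% ± 1.11 (SD, n = 3) of the counts of the TDH genes in wild type and 19.9% ± 2.60 in ZCZ01 at 2 h, and 4.89% ± 0.843 and 28.6% ± 0.826 at 4 h. TDH3 was at 88.0% ± 2.42 in wild type and 65.6% ± 2.47 in ZCZ01 at 2 h, and at 87.6% ± 1.53 and 63.4% ± 1.77 at 4 h. The exact permutation test over samples gave p = 0.1 for each of these shares, the smallest it can give. The 3 TDH genes are near copies of each other, and 8.88% to 17.1% of the 75-base stretches of their probes also occur elsewhere in the genome, but none within the last 400 bases, from which 3′ reads mostly come.

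PGK1, phosphoglycerate kinase, stood at 3477, 915 and 927 CPM in wild type and 3825, 2392 and 2338 CPM in ZCZ01 at 2 h (log2 fold change 0.95, SE 0.28, adjusted p = 0.0137), a call lost without experiment 2 (0.76) or 3 (0.80). By 4 h PGK1 was at 4928, 1339 and 1342 CPM and 2448, 1930 and 1795 CPM (-0.02, SE 0.28, adjusted p = 0.971), where experiment 1 was lower in ZCZ01 and experiments 2 and 3 were higher. Without experiment 1, PGK1 was called higher at 4 h with a log2 fold change of 0.49. GPM1, phosphoglycerate mutase, stood at 3747, 3647 and 3592 CPM and 8211, 5786 and 5594 CPM at 2 h (log2 fold change 0.81, SE 0.12, adjusted p = 1.3e-04) and at 3828, 3946 and 3834 CPM and 3684, 3803 and 3891 CPM at 4 h, with no call. Its homologs GPM2 and GPM3 were at 11.8 to 66.0 CPM in the 18 libraries and were not called between the strains at any time. PGK1 and GPM1 overlap genes on the opposite strand, and how strand was treated in the counting is not stated in the sources used here.

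Of the enolase genes, ENO1 (YGR254W, chrVII:1000927-1002240 of R64), which is known as the isozyme of growth without glucose, was higher in ZCZ01, and ENO2, the isozyme of growth on glucose, was not. ENO1 stood at 786, 1273 and 1148 CPM in wild type and 3751, 4789 and 4974 CPM in ZCZ01 at 2 h (log2 fold change 2.09, SE 0.13, adjusted p = 4.0e-08). At 4 h the values were 1129, 1307 and 1139 CPM and 2781, 3475 and 3445 CPM (log2 fold change 1.44, SE 0.12, adjusted p = 1.1e-06), and at 0.5 h 2223, 2679 and 2562 CPM and 1433, 2361 and 2328 CPM, with no call (-0.32, SE 0.12, adjusted p = 0.152). The strains were apart in each library at 2 and 4 h. ENO2 stood at 8239, 8903 and 8437 CPM in wild type and 11028, 8891 and 8493 CPM in ZCZ01 at 0.5 h, and at 6474, 5599 and 5145 CPM and 9127, 5436 and 5473 CPM at 2 h (0.18, SE 0.12, adjusted p = 0.246). At 4 h ENO2 was lower in ZCZ01, with 6439, 3924 and 3819 CPM against 3255, 2368 and 2279 CPM (log2 fold change -0.82, SE 0.12, adjusted p = 1.3e-04).

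ENO1 made up 15.9% ± 4.37 (SD, n = 3) of enolase counts in wild type and 41.2% ± 10.5 in ZCZ01 at 2 h. At 4 h its share was 21.0% ± 5.33 in wild type and 55.2% ± 7.95 in ZCZ01, where in experiments 2 and 3 ENO1 exceeded ENO2. The shares did not overlap between the strains at either time (exact permutation test, p = 0.1, the smallest value possible). At 0.5 h they overlapped, with 21.2%, 23.1% and 23.3% in wild type and 11.5%, 21.0% and 21.5% in ZCZ01. The 2 genes share 9.93% of the 75-base stretches of their probes with each other or another place in the genome, and none in the last 400 bases.

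**Figure D3:**
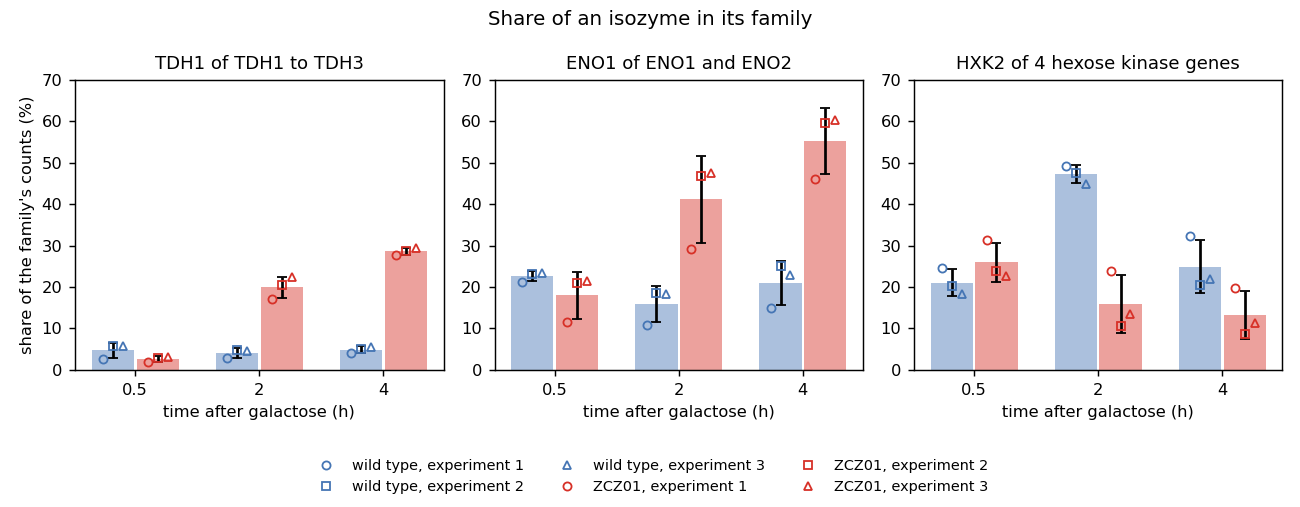
Share of an isozyme in the counts of its family (y axis, percent) at 0.5, 2 and 4 h after galactose (x axis) for TDH1, ENO1 and HXK2, with bars at the mean, whiskers of 1 SD (n = 3) and 1 point per library, wild type in blue and ZCZ01 in red. At 4 h the ZCZ01 bar for TDH1 is at 28.6% and that for ENO1 at 55.2%, above every wild type library, while that for HXK2 is below.

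CDC19 (YAL038W, chrI:71786-73288 of R64) encodes the main pyruvate kinase. It stood at 2586, 1267 and 1190 CPM in wild type and 3031, 1905 and 1818 CPM in ZCZ01 at 0.5 h, with no call (0.48, SE 0.19, adjusted p = 0.175). At 2 h the values were 2043, 1043 and 1047 CPM in wild type and 4593, 3968 and 3997 CPM in ZCZ01 (log2 fold change 1.68, SE 0.20, adjusted p = 1.9e-05), which did not overlap. At 4 h they were 2530, 1591 and 1504 CPM and 1820, 2279 and 2151 CPM (0.19, SE 0.19, adjusted p = 0.468), with experiment 1 lower in ZCZ01 and the others higher. The strain effect rose between 0.5 and 2 h and fell between 2 and 4 h (1.20 and -1.49).

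PYK2, a minor pyruvate kinase, was also higher in ZCZ01 at 2 h. It stood at 18.9, 15.7 and 14.7 CPM in wild type and 38.8, 46.1 and 43.6 CPM in ZCZ01 at 2 h (log2 fold change 1.37, SE 0.27, adjusted p = 0.00104). At 0.5 h PYK2 was at 22.5, 40.4 and 43.9 CPM and 29.9, 55.8 and 50.9 CPM, and at 4 h at 40.8, 21.7 and 47.7 CPM and 39.8, 37.1 and 29.7 CPM, with no call and with overlapping libraries. Its share of pyruvate kinase counts was 1.26% ± 0.302 (SD, n = 3) in wild type and 1.02% ± 0.164 in ZCZ01 at 2 h. CDC19 and PYK2 also overlap genes on the opposite strand.

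The 3 pyruvate decarboxylase genes were all higher in ZCZ01 at 4 h. PDC1 encodes the main enzyme. At 0.5 h PDC1 stood at 4546, 6257 and 6022 CPM in wild type and 5197, 5358 and 5247 CPM in ZCZ01. At 2 h it stood at 3639, 4081 and 4044 CPM and 9465, 11027 and 11119 CPM (log2 fold change 1.42, SE 0.10, adjusted p = 2.4e-07), more than any wild type library. At 4 h it was at 4107, 5229 and 5223 CPM and 5032, 7512 and 7561 CPM (log2 fold change 0.45, SE 0.10, adjusted p = 0.0033), where the groups overlapped and the call was lost without experiment 2 (0.42) or 3 (0.43). PDC5, a close relative that is known to rise when PDC1 is missing or thiamine is low, stood at 21.4, 14.1 and 21.2 CPM and 34.4, 26.8 and 30.0 CPM at 2 h, with no call (0.69, SE 0.29, adjusted p = 0.0718). At 4 h PDC5 was at 21.3, 6.60 and 20.3 CPM and 63.5, 49.3 and 40.0 CPM (log2 fold change 1.66, SE 0.29, adjusted p = 5.2e-04), and at 0.5 h at 22.5, 14.1 and 19.0 CPM and 14.6, 10.1 and 12.7 CPM.

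PDC6 (YGR087C, chrVII:651290-652981 of R64) had the largest fold changes of the 33 genes, at low levels. This minor isozyme holds little sulfur and is known for its rise under sulfur limitation. In wild type it stood at 0, 0 and 1.97 CPM at 0.5 h, 0, 0.783 and 4.70 CPM at 2 h and 0.591, 0 and 1.40 CPM at 4 h. In ZCZ01 the values were 0.610, 1.55 and 2.89 CPM at 0.5 h, 37.7, 94.5 and 93.9 CPM at 2 h and 33.7, 91.8 and 98.9 CPM at 4 h. The strains overlapped at 0.5 h and were far apart at 2 and 4 h, and experiment 1 of ZCZ01 was below experiments 2 and 3 at both times. PPZ1 was also lower in that ZCZ01 experiment at these times, and its part in this was not tested.

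The fitted log2 fold changes of PDC6 were 5.28, SE 0.48, adjusted p = 2.0e-06 at 2 h and 6.47, SE 0.57, adjusted p = 1.1e-06 at 4 h, and without experiment 3 the former was 7.23. These fold changes depend on the prior count, since wild type held few reads. PDC6 was tested only because its ZCZ01 libraries of these times passed the filter, so the adjusted p values are not independent support for the difference. Summed over 3 libraries at 4 h, wild type held 3 counts and ZCZ01 390, a ratio of 109 after correction for depth, with an exact 95% interval of 37.1 to 532 that covers counting error only. At 0.5 h the sums were 3 and 8 counts, a ratio of 2.45 with an interval of 0.588 to 14.3. Even at 4 h, PDC6 was 1.05% ± 0.341 (SD, n = 3) of pyruvate decarboxylase counts in ZCZ01, PDC5 was 0.800% ± 0.384, and the remainder was PDC1.

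Of the alcohol dehydrogenase genes, ADH2 was higher in ZCZ01 at 4 h, and ADH1 was lower. ADH2 (YMR303C, chrXIII:873291-874337 of R64) encodes the glucose-repressed enzyme that oxidizes ethanol, and Adr1 is its known activator. It stood at 100.2, 179 and 198 CPM in wild type and 68.3, 76.0 and 84.4 CPM in ZCZ01 at 0.5 h, lower in each experiment but with no call (-1.01, SE 0.46, adjusted p = 0.233). At 2 h the values were 22.6, 129.9 and 111 CPM and 194, 141 and 159 CPM (1.09, SE 0.47, adjusted p = 0.0769). At 4 h ADH2 was at 65.0, 10.4 and 7.72 CPM in wild type and 256, 169 and 185 CPM in ZCZ01 (log2 fold change 3.15, SE 0.53, adjusted p = 3.5e-04), and without experiment 1, whose wild type library was the highest, the value was 4.34. The difference at 4 h stands on a wild type mean that was 159 CPM at 0.5 h and 27.7 CPM at 4 h, and on a ZCZ01 mean of 76.2 CPM at 0.5 h and 204 CPM at 4 h. Its share of alcohol dehydrogenase counts at 4 h was 0.520% ± 0.557 (SD, n = 3) in wild type and 5.57% ± 2.02 in ZCZ01.

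ADH1, the main ethanol-forming enzyme, stood at 8437, 6172 and 6394 CPM in wild type and 8592, 6928 and 6963 CPM in ZCZ01 at 0.5 h, and at 5442, 4135 and 4153 CPM and 5701, 4301 and 4492 CPM at 2 h, with no call at either. At 4 h it was lower in ZCZ01, at 4989, 3886 and 3903 CPM against 2645, 3422 and 3407 CPM (log2 fold change -0.43, SE 0.13, adjusted p = 0.0153), a call lost without experiment 2 (-0.55) or 3 (-0.53). The mitochondrial enzyme of ADH3 was lower in ZCZ01 at 2 h (-0.42, SE 0.15, adjusted p = 0.0375) and 4 h (-0.75, SE 0.15, adjusted p = 0.00126), and the former call was lost without experiment 2 (-0.32) or 3 (-0.34), with total counts (-0.27) and with DESeq2 (-0.37). ADH4, a gene known to respond to zinc, was higher at 2 h (0.90, SE 0.21, adjusted p = 0.00421) and 4 h (0.82, SE 0.23, adjusted p = 0.0123), at 16.0 to 55.8 CPM. Its call was lost at 2 h without experiment 3 (0.93) and at 4 h without experiment 2 (0.77) or 3 (0.86). ADH5 was not called at any time. ADH1 and ADH2 share 10.7% of the 75-base stretches of their probes with another place in the genome, and none in the last 400 bases. ADH1 overlaps YOL086W-A on the opposite strand.

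**Figure D4:**
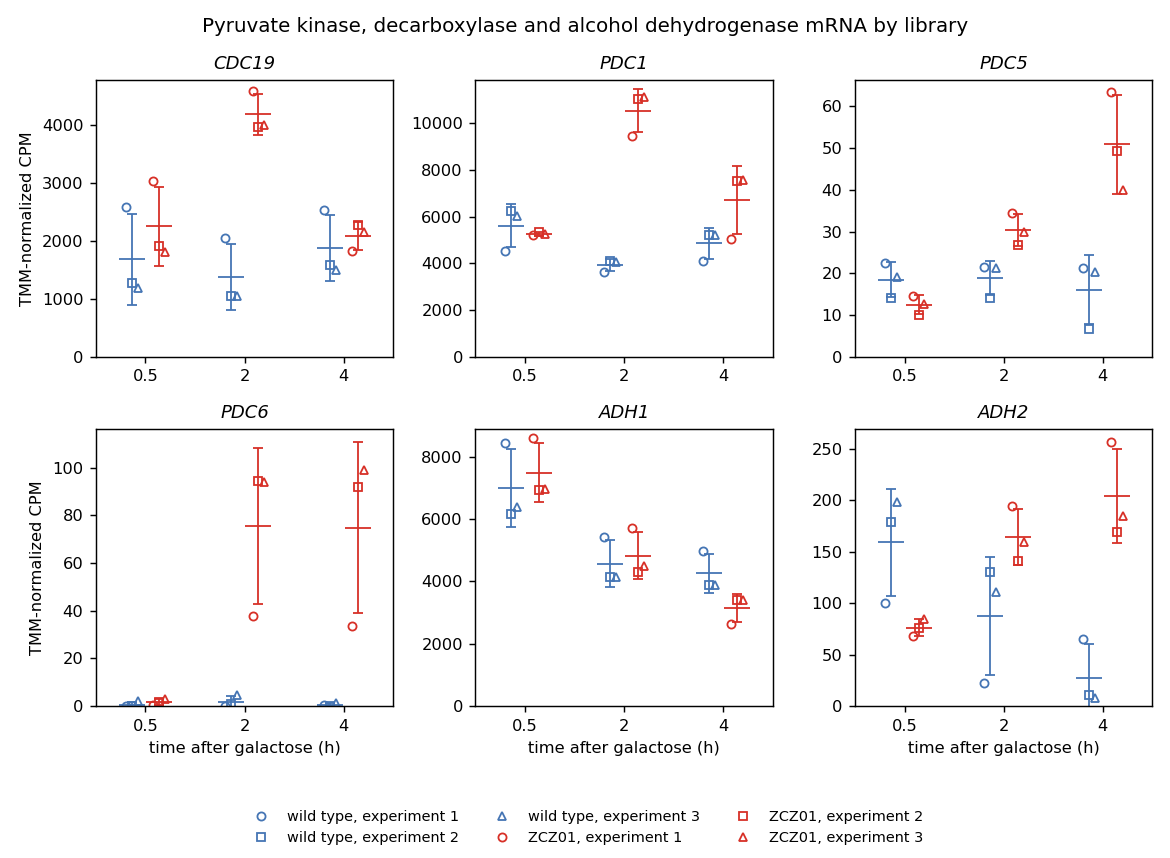
TMM-normalized CPM (y axis, from 0, a scale per panel) of CDC19, the pyruvate decarboxylase genes and the alcohol dehydrogenase genes ADH1 and ADH2 at 0.5, 2 and 4 h after galactose (x axis), with 1 point per library, the bar at the mean and whiskers of 1 SD (n = 3). Wild type is blue and ZCZ01 red. PDC6 in ZCZ01 lay between 33.7 and 98.9 CPM at 2 and 4 h, against at most 4.70 CPM in wild type.

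Of the regulators, TYE7, an activator of glycolytic genes, was higher in ZCZ01 at 2 h. It stood at 25.8, 41.5 and 35.3 CPM in wild type and 48.6, 141 and 122 CPM in ZCZ01 (log2 fold change 1.52, SE 0.21, adjusted p = 8.9e-05), with experiment 1 below the others. At 0.5 h the values were 25.7, 24.6 and 32.8 CPM and 39.0, 39.6 and 31.2 CPM, and at 4 h 30.1, 72.6 and 57.5 CPM and 39.8, 77.0 and 69.2 CPM, with no call at either. GCR1, the activator of the abundant glycolytic genes, was at 17.1 to 48.1 CPM in the 18 libraries, and its strain effects of 0.04, 0.42 and -0.05 were not called.

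The strain effect changed with time. By contrasts of the same fit, it was higher at 2 h than at 0.5 h in 14 members and lower in 3, against 12.5% and 18.2% of all genes. The 14 were PFK1, FBA1, TDH1, TDH2, GPM1, GPM2, ENO1, CDC19, PYK2, PDC1, PDC5, ADH2, ADH4 and TYE7, with differences from 0.51 (FBA1) to 3.50 (TDH1), and the 3 were HXK1, HXK2 and ADH3. Between 2 and 4 h the strain effect was lower in 14 members and higher in none, against 6.88% and 6.86% of all genes, and at an unadjusted p under 0.05 it was 18 and 4, against 13.9% and 16.0%. These differences ran from -0.50 (TDH3) to -3.61 (PFK27). PFK27 passed the filter through its ZCZ01 libraries of 2 h and wild type libraries of 4 h, so the filter partly sets its difference, which also rests on few counts. The contrasts share the libraries of 2 h, so a low or high value there acts on both. With experiments 2 and 3 summed, 8 of the 17 and 1 of the 14 calls were kept. Without experiment 2, 10 and 3 were kept, and without experiment 3, 8 and 1, whereas without experiment 1 the number of members called was 24 and 22. For the fit without experiment 1 the share of all genes called was not counted.

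Within wild type, the members called between 0.5 and 2 h all fell. Between 0.5 and 2 h, 16 members fell and none rose, against 9.40% and 11.1% of all genes, and at an unadjusted p under 0.05 it was 20 and 0, against 15.8% and 16.9%. HXK1 fell by 2.44, EMI2 by 2.05 and GLK1 by 2.00 on the log2 scale. Among abundant genes, ENO1 fell by 1.24, TDH2 by 0.81, GPM1 by 0.64 and ADH1 by 0.61. With experiments 2 and 3 summed 6 of the 16 calls were kept, and without experiment 2 or 3, 5 each. Between 2 and 4 h in wild type, 5 members rose and 1 fell, against 5.18% and 5.76% of all genes. These were GLK1, GPM2, PYK2, PFK1 and HXK1, and HXK2. None of the 6 was kept without experiment 2 or 3 or with these summed. Without experiment 1, 23 members were called, and the share of all genes called there was not counted. Scaled by total counts, 6 rose and 0 fell.

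Within ZCZ01 the members split between 0.5 and 2 h. There 13 rose and 10 fell, against 16.8% and 19.0% of all genes. PDC6 (5.44), TDH1 (2.90), PFK27 (2.20), TYE7 (1.38), PDC5 (1.28), ENO1 (1.16) and ADH4 (1.02) rose by at least 2-fold, and HXK1 (-4.22), HXK2 (-3.94), EMI2 (-2.44), TPI1 (-1.34) and PFK2 (-1.03) fell by as much, all as log2 fold changes, against 9.60% and 8.29% of all genes past 2-fold. The rises of PDC6 and PFK27 are partly set by the filter, which they reached in ZCZ01 at 2 h or later and not at 0.5 h. TDH3, ENO2, ADH1, ADH3 and GLK1 also fell, by less than 2-fold. Between 2 and 4 h 12 members fell and 1 rose, against 3.46% and 2.63% of all genes. ENO2 (-1.32), TDH2 (-1.31), PFK2 (-1.15) and PFK1 (-1.02) fell by at least 2-fold, and HXK1 rose by as much (1.03) from its low point at 2 h, against 1.56% and 1.11% of all genes past 2-fold. With experiments 2 and 3 summed, and also without either of them, 11 of the 23 and 2 of the 13 calls were kept. Without experiment 1, 20 members were called between 2 and 4 h, and the share of all genes called there was not counted.

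**Figure D5:**
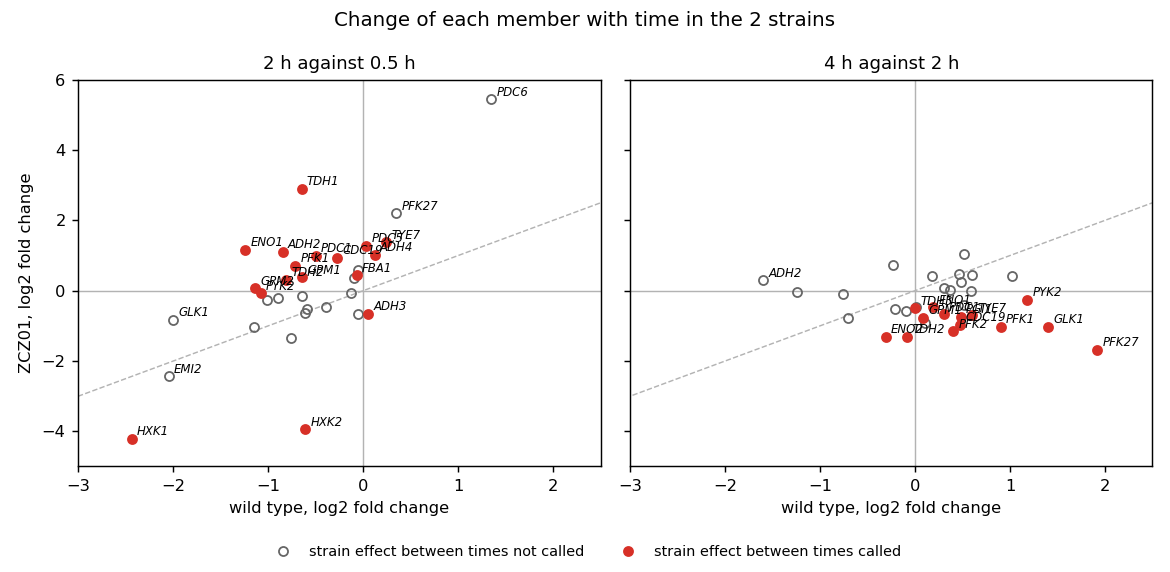
Log2 fold change of each of the 33 genes within ZCZ01 (y axis) against that within wild type (x axis), from 0.5 to 2 h on the left and from 2 to 4 h on the right. The dashed line marks equal change, and filled points are members whose strain effect differed between the times at an adjusted p under 0.05. On the left, TDH1 (2.90), ENO1 (1.16) and PDC1 (0.99) lie above the line with HXK1 (-4.22) and HXK2 (-3.94) below it.

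Together the 33 genes took 7.99% ± 0.269 (SD, n = 3) of the counts of a wild type library at 0.5 h, 5.18% ± 0.316 at 2 h and 5.96% ± 0.717 at 4 h. In ZCZ01 they took 7.64% ± 0.171, 8.16% ± 0.230 and 5.44% ± 0.326. At 2 h the libraries of ZCZ01, at 7.98% to 8.42%, were above those of wild type, at 4.93% to 5.54% (exact permutation test over samples, p = 0.1, the smallest value that 3 against 3 allow), and at 0.5 and 4 h the ranges overlapped. TDH3, the most abundant member, had a mean of 15833 CPM in wild type and 15072 CPM in ZCZ01 at 2 h, whereas PDC1 went from 3921 to 10537 CPM and TDH1 from 719.5 to 4529 CPM between the strains. It is a share of mRNA reads, and the amount of mRNA per cell was not measured.

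A list of 22 other genes tied to the pathway was counted for comparison. At 0.5 h none was higher and 1 was lower in ZCZ01 (PGM2, -1.25, SE 0.18, adjusted p = 0.00101), against 4.56% and 2.30% of all genes. PGM2, phosphoglucomutase, brings galactose carbon into glycolysis, and was at 718, 973 and 879 CPM in wild type and 229, 468 and 421 CPM in ZCZ01 at that time. PGM2 was higher in ZCZ01 at 2 h (0.66, SE 0.18, adjusted p = 0.00882) and was not called at 4 h (0.03), and its strain effect differed between 0.5 and 2 h (1.91, SE 0.25, adjusted p = 8.6e-05). At an unadjusted p under 0.05, 4 of the 22 were higher and 7 lower at 0.5 h, against 11.6% and 8.55% of all genes. At 2 h 3 were higher and 8 lower, against 19.1% and 23.2% of all genes, and at 4 h 2 were higher and 9 lower, against 19.9% and 21.4%. SUC2, invertase, a Mig1 target, was lower at both times (-2.62 and -2.01), as were CAT8 (-2.89 and -1.60), an activator of gluconeogenic genes, and RAP1 (-1.09 and -1.71), which binds glycolytic promoters with Gcr1. ADR1, the activator of ADH2, was lower at 2 h (-1.04, at 22.6, 12.5 and 20.6 CPM in wild type and 4.91, 7.44 and 15.8 CPM in ZCZ01) and 4 h (-0.94), the latter being a time at which ADH2 was higher. ARO10, a decarboxylase of amino acid breakdown, was lower (-2.21 and -2.76), as was ADH6 (-1.11 and -1.36).

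MIG2, a repressor related to Mig1, was higher at 2 h (2.07) and 4 h (1.81), at 12.0, 15.6 and 9.62 CPM in ZCZ01 at 2 h against 2.52, 2.35 and 3.53 CPM in wild type. Like PDC6, MIG2 passed the filter through ZCZ01 libraries alone, so the filter partly sets its difference, and it rests on 2 to 9 counts in each wild type library at these times. SFA1, another alcohol dehydrogenase, was higher at 2 h (1.07). PYC1, pyruvate carboxylase, was higher at 4 h (1.65), while PYC2 was lower (-1.14), as were PGM1 (-1.12) and TDA1 (-1.44), a kinase known to act on Hxk2. The gluconeogenic genes FBP1 and PCK1 were not called at any time, nor were MIG1, REG1, SNF1, PDC2, THI3 and ADH7. The median log2 fold change of the 22 was -0.13, -0.21 and -0.22 at 0.5, 2 and 4 h.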

How the data were processed

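RNA from 18 samples, taken from cultures at 3 times each, was measured with QuantSeq 3′ libraries. The deposited values are whole-number read counts per gene probe, which the authors made by aligning reads of 75 bases with Bowtie2 and counting them without scaling. Of 6692 probes, 5955 were named in the R64 annotation, and 5945 of these are the gene with 100 bases downstream. The version of the aligner and the strand setting are not given in the sources used here. Times and experiments came from the library names.

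Counts were filtered by filterByExpr, normalized by TMM and tested in edgeR 4.0.16 under R 4.3.3 by the quasi-likelihood test, with Benjamini-Hochberg adjustment over 5658 genes and calls at an adjusted p under 0.05. SE stands for the absolute log2 fold change divided by the square root of the F statistic of that test, and is not an output of the fit. The strain fit held 9 blocks, 1 per experiment and time. The libraries of a block deviated together (r from 0.535 to 0.814), as did those of an experiment at neighbouring times (0.473 to 0.834), where the time courses used 1 block per experiment. Isozyme shares and the share of all members were compared by exact two-sided permutation tests. Unlike the strain fit, these tests did not pair libraries by experiment. Ratios of low counts carry exact intervals for counting error only.

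All members were accounted for, and values per library were given for those called with at least 2-fold in ZCZ01 at any time and for the main isozyme of the step. The rule for the members uses gene names alone, and the members and lists were chosen with earlier results of these data known. Alternatives were no replicate block or 1 replicate block per experiment, total counts, DESeq2 1.42.0, no filter, each experiment left out, experiments 2 and 3 summed, and the times of the titles. Other steps used Python 3.11.15, pandas 2.3.3, scipy 1.17.1 and matplotlib 3.10.9.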

Additional observations from a re-analysis of the deposited data

Results flagged for a closer look

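The results given here are members whose strain effect, the log2 fold change of ZCZ01 against wild type, differed between 2 times in a test of that difference, a contrast of the edgeR fit at an adjusted p under 0.05. From 0.5 to 2 h the strain effect moved up in PFK1 (1.41), FBA1 (0.51), TDH1 (3.50), TDH2 (1.12), GPM1 (1.01), GPM2 (1.21), ENO1 (2.41), CDC19 (1.20), PYK2 (1.02), PDC1 (1.50), PDC5 (1.25), ADH2 (2.10), ADH4 (0.90) and TYE7 (1.12). It moved down in HXK1 (-1.79), HXK2 (-3.37) and ADH3 (-0.72). The last of these, ADH3, and FBA1, GPM2, CDC19, PYK2, PDC5, ADH2, ADH4 and TYE7 lost the call when experiments 2 and 3 were summed.

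From 2 to 4 h it moved down in GLK1 (-2.50), PGI1 (-1.23), PFK1 (-1.91), PFK2 (-1.53), PFK27 (-3.61), TDH2 (-1.22), TDH3 (-0.50), GPM1 (-0.84), ENO1 (-0.66), ENO2 (-1.00), CDC19 (-1.49), PYK2 (-1.41), PDC1 (-0.97) and TYE7 (-1.27). Of these calls, that of PFK1 was kept when experiments 2 and 3 were summed, and the other 13 were lost, while the log2 differences stayed negative. The difference of PFK27 is partly set by the filter on low counts. No group held 4 or more libraries, so no search for single outlying libraries was made, and every table was used in a comparison.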

How the results depend on the processing

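With no replicate block, 0 members were lower in ZCZ01 at 0.5 h and 2 at 2 h, and 10 and 5 members had a strain effect that differed from 0.5 to 2 h and from 2 to 4 h. In that fit 1 member changed in wild type from 2 to 4 h, and 15 and 5 changed in ZCZ01 in the earlier and the later interval. With experiments 2 and 3 summed, 0 members were lower at 0.5 h, 5 were higher at 4 h, and 8 and 1 differed between the times. In the time courses 6 and 0 members then changed in wild type and 11 and 2 in ZCZ01. Under the times of the titles, 1 member was higher at 2 h, 0 at 4 h, and 0 were lower at 0.5, 2 or 4 h. There TDH1 turned to 1.82 at 0.5 h, and at 4 h PGI1 turned to 0.14, PFK1 to 0.47 and ADH1 to 0.01. The block of 1 replicate per experiment and DESeq2 were run for the strain comparisons, no filter for these and the time courses, and total counts for all, and each left its counts of members, with both directions counted together in the time courses, within 1.5 times.

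Leaving out each experiment in turn gave 0 to 8 members higher and 0 to 10 lower at 0.5 h, and 5 to 10 higher at 4 h. The members whose strain effect differed numbered 8 to 24 from 0.5 to 2 h and 1 to 22 from 2 to 4 h. Those that changed numbered 5 to 24 and 0 to 23 in wild type, and 11 to 27 and 2 to 20 in ZCZ01. PGK1 at 4 h ranged from -0.29 to 0.49, the latter called without experiment 1. The highest counts came without experiment 1, where the closely alike experiments 2 and 3 remain. Shares of all genes were not counted in these other fits, so the counts of members there have no background beside them. The cause of the other changes was not tested. Low counts limit PDC6 in wild type, PFK27 and MIG2, for which fold changes are imprecise.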
